A study of Mus musculus with 24 samples.

Results

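The complement genes C3, C4b, C2, Cfb, Cfp, Serping1, C1qa, C1qb and C1qc were followed over 24 arrays of mouse cells. Each gene was taken at the probe set with the highest mean among those to which the platform's annotation gives that symbol alone. Of the 9 genes, 8 had such a probe set, out of 19938 genes in all. No probe set given here carries the symbol C3, and that gene was not analysed here.

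The arrays held total RNA of 3 kinds of cell, each given an inflammatory supernatant or kept in RPMI media, with 4 arrays per group. C57epi.1, labelled epithelial, was derived from C57BL/6 upper reproductive tract. Bm12.4, labelled epithelial too, came from that tissue in B6(C)-H2-Ab1bm12/KhEgJ animals, whose MHC class II beta chain is mutated. Macrophages were differentiated with GM-CSF out of femur marrow of C57BL/6 animals. The supernatant, at 33% (v/v), was RPMI in which infected epithelial monolayers had been held with a CD4 T cell clone against Chlamydia, and interferon-gamma was added to 4 ng/ml. The same growth medium, with serum, 2-ME and gentamicin, is given for every group. The sources used here do not say how long cells were treated, whether each line is a single clone, or whether replicates were separate cultures. P-values therefore measure the spread among the arrays alone, which may be technical.

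Complement is a cascade of serum proteins that marks microbes and damaged cells for uptake or lysis. The classical pathway starts when C1q, built of the chains of C1qa, C1qb and C1qc, binds a target and lets its partner proteases cut C4 and C2. The alternative pathway runs through factor B, the product of Cfb, and is held together by properdin, the product of Cfp, while C1 inhibitor, the product of Serping1, blocks the C1 proteases. The liver makes most of the circulating proteins, but macrophages and epithelia make some of them locally, and interferon-gamma is a known inducer of several. In the RefSeq gene table, Cfb and C2 are direct neighbours, and C1qa, C1qc and C1qb follow one another.

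The promoters of C1qb and C1qc are shown because these chains had the same pattern over the groups, high in macrophages and near the floor of the array in both lines. They were the only promoters of the C1q genes matched by symbol in RefSeq's table (GRCm38.p6). Each is given as the 250 bases before the start that this table uses, on the gene's strand. The RefSeq gene record of C1qc reaches past that start, so 22 bases of its window lie inside the record, and 0 bases do for C1qb. Capitals mark GAGGAA on either strand, a core bound by the myeloid ETS factor PU.1, which reads TTCCTC where it lies on the opposite strand.
C1qb (chr4:136886201-136886450, minus strand): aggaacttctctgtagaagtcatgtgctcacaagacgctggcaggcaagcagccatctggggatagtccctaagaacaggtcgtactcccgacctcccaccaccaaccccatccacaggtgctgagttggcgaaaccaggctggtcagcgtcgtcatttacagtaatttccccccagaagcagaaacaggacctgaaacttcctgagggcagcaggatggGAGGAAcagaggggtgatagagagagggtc
C1qc (chr4:136892915-136893164, minus strand): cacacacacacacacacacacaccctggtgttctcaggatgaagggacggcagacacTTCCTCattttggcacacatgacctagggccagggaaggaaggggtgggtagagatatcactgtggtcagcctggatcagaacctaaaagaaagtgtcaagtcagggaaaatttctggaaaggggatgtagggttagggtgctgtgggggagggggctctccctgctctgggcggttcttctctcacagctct
Counted from the start, the match spans positions −30 to −25 in C1qb and −193 to −188 in C1qc. Of 27025 promoters of this length, 23.1% held GAGGAA on at least one strand, so its presence in this pair is a description only. A match to TTCNNNGAA, the interferon-gamma activated core, was also sought on both strands. Of these promoters 7.18% held it, and these windows of C1qb and C1qc did not. The table also held the promoters of Cfp, likewise high in macrophages alone, and of C3, which was not analysed here. Their windows of the same length had no match to either motif on either strand.

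Levels are the authors' deposited RMA values on the log2 scale, where 1 unit is a 2-fold difference. They can be set against each other between groups for 1 gene, not between genes. No detection call was used here, so a gene at a low level may be at background. As a rough scale, the group means of 1015 olfactory receptor genes had a median of 3.07 and a 95th percentile of 4.26.

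The cell labels were checked by marker genes. The mean level of 9 macrophage markers, Ptprc, Csf1r and Itgam among them, lay between 11.39 and 11.8 on the macrophage arrays and between 4.12 and 4.53 on those of the lines. The mean of 6 epithelial markers was 5.81 to 6.73 in the lines and 4.84 to 5.23 in macrophages. The 6 genes did not go one way. The keratin gene Krt19 was high in both lines, with group means of 11.31 to 12.12, against 4.13 and 4.32 in macrophages. Epcam had group means of 3.67 to 3.75 in the lines, against 3.71 and 3.79 in macrophages, and Cdh1 had 4.3 to 4.5 in the lines, against 6.65 and 7.25 in macrophages. The keratin gene Krt8 had 9.03 and 9.25 in C57epi.1 but 5.67 and 5.78 in Bm12.4, against 5.38 and 5.62 in macrophages. Krt7 had 4.72 to 5.8 in the lines, against 4.6 and 4.68 in macrophages, and Krt18 had 4.72 to 5.62, against 4.92 and 5.02. The lines are called by their names here. The mean of 10 stromal and mesothelial markers was 10.51 to 11.32 in the lines, against 6.3 to 6.72 in macrophages. All but Col1a2 and Vim were higher in both lines. In means of replicates 1 and 2 and of 3 and 4, Col1a2 had 11.75 to 12.62 in C57epi.1 but 5.48 to 6.06 in Bm12.4, against 6.87 to 7.81 in macrophages. Vim had 13.31 to 13.53 in C57epi.1 and 12.41 to 12.55 in Bm12.4, against 13.46 to 13.6 in macrophages. The lists for other myeloid cells also had higher means on the macrophage arrays, through Clec9a, Ccr7, Mmp8, S100a8 and S100a9. Their other genes did not stand apart so. In means of replicates 1 and 2 and of 3 and 4, Zbtb46 had 5.54 to 6.17 in the lines, against 5.39 to 5.86 in macrophages. Flt3 had 4.27 to 4.6, against 4.51 to 4.92, and Itgae 3.59 to 3.83, against 3.79 to 4.03. Ngp had 2.86 to 3.17, against 3.13 to 3.69. The mean of 5 dendritic cell markers was 4.13 to 4.62 in the lines, against 5.73 to 6.32 in macrophages, where Clec9a had group means of 7.14 in supernatant and 7.92 in media. The mean of 4 neutrophil markers was 3.45 to 4.3 in the lines, against 5.96 to 7.26 in macrophages, where Mmp8 had 11.45 in supernatant and 12.05 in media. The part of such cells in the levels of the macrophage arrays was not tested. T cell markers, which would show carry-over of the clone, averaged 3.75 to 4.02 over 5 genes on the arrays given supernatant, against 3.73 to 4.21 on the media arrays. In media, replicates 3 and 4 of both lines stood apart from replicates 1 and 2 in their cell cycle genes, a split that touches C4b most among the complement genes.

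The recognition chains C1qa, C1qb and C1qc were macrophage genes in these data, and the supernatant moved none of them past the threshold in any kind of cell. C1qb had levels of 10.54, 10.67, 11.21 and 11.04 in macrophages given supernatant, against 10.86, 11.05, 11.53 and 11.34 in macrophages in media. In C57epi.1 it had 3.73, 4.54, 4.34 and 4.24 in supernatant, against 3.9, 4.2, 3.97 and 3.82 in media, and in Bm12.4 3.95, 3.9, 4.16 and 3.91 in supernatant, against 3.84, 3.9, 4.23 and 4.13 in media. Every macrophage array lay far above every array of the lines, and within each kind the treated and media arrays overlapped.

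C1qc had levels of 9.29, 9.56, 10.21 and 10.28 in treated macrophages, against 9.39, 9.89, 10.28 and 9.96 in macrophages in media. In the lines its arrays lay between 3.17 and 3.75. C1qa had 8.41, 9, 8.72 and 9.64 in treated macrophages, against 8.71, 8.84, 9.58 and 9.17 in media, and between 4.23 and 5.14 in the lines. The macrophage groups overlapped in both genes, and so did the 4 groups of the lines.

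In media, C57epi.1 lay below macrophages by 7.22 in C1qb (log2 difference −7.22, SE 0.17, 149-fold, adjusted p = 2.9e-20). The log2 difference was −6.32 for C1qc and −4.45 for C1qa. Bm12.4 differed from macrophages by −7.17, −6.33 and −4.4 in C1qb, C1qc and C1qa. Because the lines sat near the array's floor, these differences measure array values and not the full gap in RNA. The supernatant effect in macrophages had a 95% interval of −0.58 to 0.32 for C1qa (adjusted p = 0.835), −0.68 to 0.02 for C1qb (adjusted p = 0.27) and −0.43 to 0.34 for C1qc (adjusted p = 0.95). The C1qb effect in macrophages was called with array weights (−0.43, adjusted p = 0.0492) and with a replicate block over the macrophage arrays alone (−0.33, adjusted p = 0.0273). Same-numbered treated and media macrophage arrays did not deviate together across genes in every pair (lowest r −0.134). This block therefore does not count as paired. Across the alternatives the adjusted p of the C1qb effect ran from 0.0273 to 0.598. In C57epi.1 the C1qb difference was 0.24 (adjusted p = 0.4), and it was called in replicates 3 and 4 alone (0.39, adjusted p = 0.0301).

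**Figure D1:**
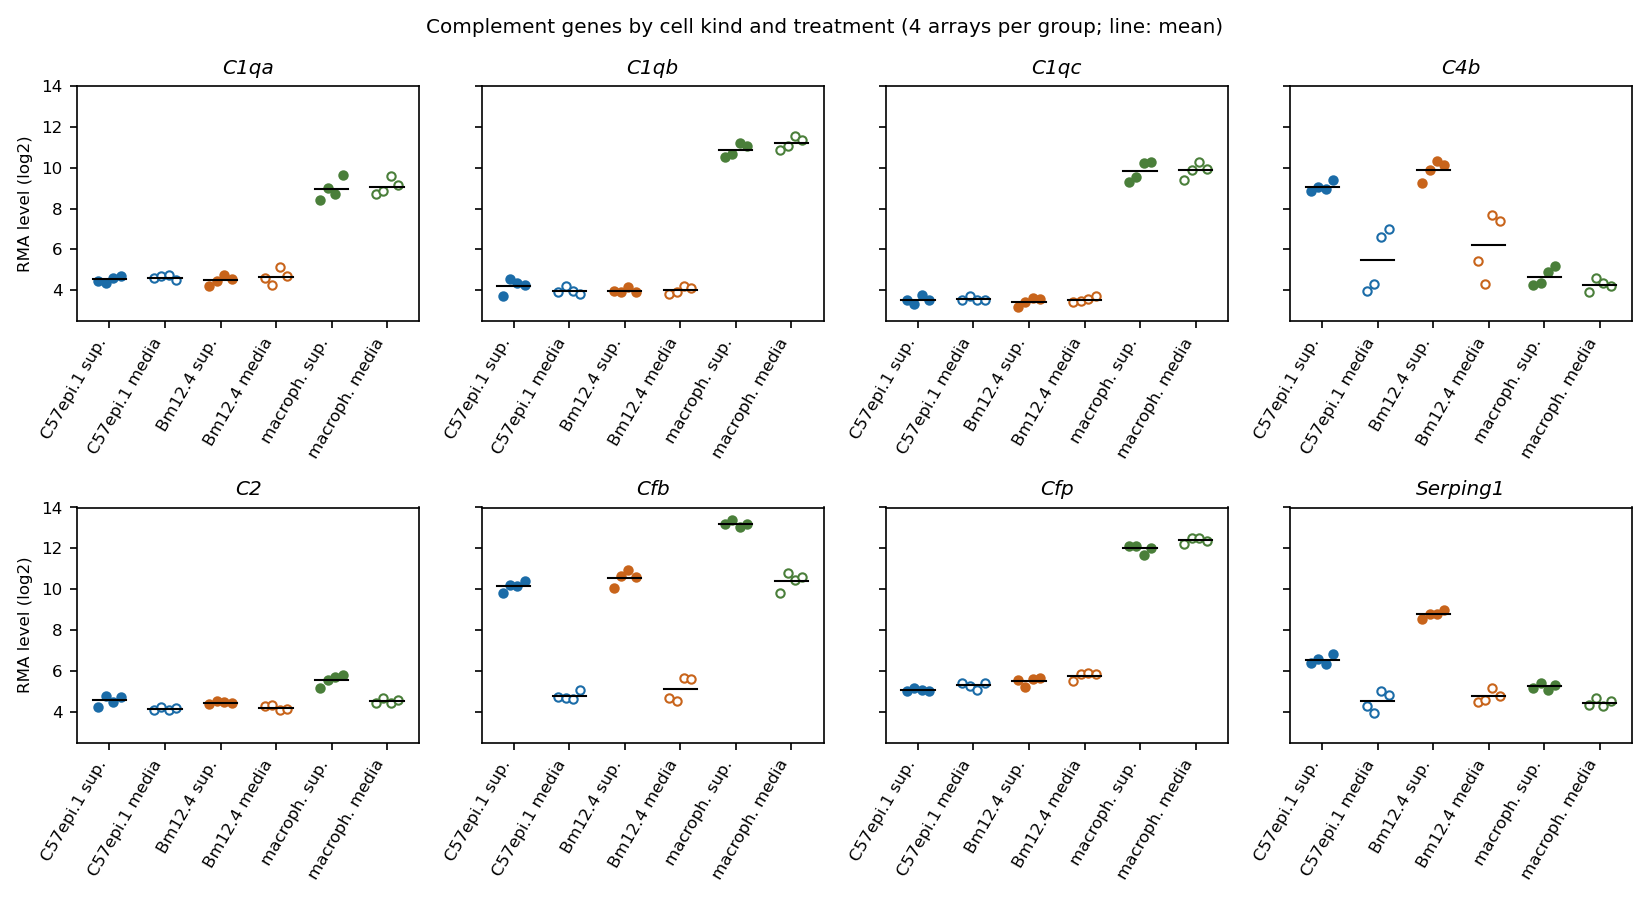
RMA level (log2, vertical axis) of the 8 measured complement genes on each array, with 4 arrays per group, filled points for supernatant, open points for media and a line at the group mean. C1qa, C1qb, C1qc and Cfp stand high in macrophages alone, Cfb rises in all 3 kinds of cell, and C4b and Serping1 are highest in the lines given supernatant.

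C4b, which encodes the C4 protein cut by the C1 proteases, rose in both lines and reached its highest levels there. In C57epi.1 the arrays had levels of 8.84, 9.08, 8.97 and 9.41 in supernatant, against 3.98, 4.33, 6.62 and 7.01 in media. In Bm12.4 they had 9.23, 9.9, 10.34 and 10.12 in supernatant, against 5.45, 4.3, 7.7 and 7.39 in media. In macrophages they had 4.25, 4.35, 4.92 and 5.17 in supernatant, against 3.91, 4.61, 4.34 and 4.22 in media. All treated arrays of each line lay above all of its media arrays, while the macrophage groups overlapped. In bulk RNA, fewer cells of a type and less RNA per cell cannot be told apart.

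The mean of C4b was 9.07 ± 0.24 in treated C57epi.1 and 5.48 ± 1.55 in media (SD, n = 4 each), a log2 difference of 3.59 (SE 0.624, 12-fold, adjusted p = 0.000207). It was 9.9 ± 0.48 in treated Bm12.4 and 6.21 ± 1.62 in media, a log2 difference of 3.69 (SE 0.624, 12.9-fold, adjusted p = 0.000303). The wide SD of the media groups came mostly from a gap between the replicate sets. Replicates 3 and 4 averaged 6.81 in C57epi.1 and 7.54 in Bm12.4, against 4.16 and 4.88 in replicates 1 and 2. Within replicates 1 and 2 the supernatant effect was 4.81 in C57epi.1 and 4.69 in Bm12.4. Within replicates 3 and 4 it was 2.38 in C57epi.1 and 2.69 in Bm12.4, so the rise was seen in each set and its size moved with the set.

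The same media arrays differed in the cell cycle genes Mki67, Top2a and Cdc20. Their mean level was 9.82 and 9.89 in replicates 3 and 4 of C57epi.1 in media and 10.59 and 10.53 in replicates 1 and 2. For Bm12.4 in media, replicates 3 and 4 had 7.69 and 8.03, against 10.13 and 10.09 for replicates 1 and 2. The media arrays with the lower cell cycle level were those with the higher C4b level in both lines, and the part of this split in the C4b result was not tested. In treated C57epi.1 the cell cycle mean spanned 9.95 to 10.22 and in treated Bm12.4 8.89 to 9.94, as the plot of C4b against cell cycle level shows.

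**Figure D2:**
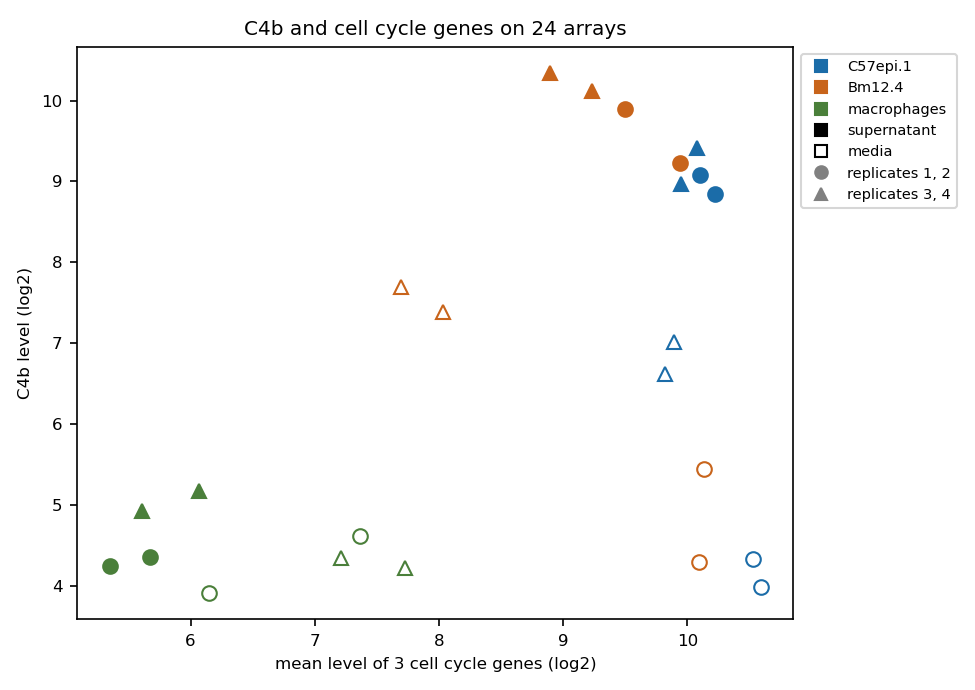
C4b level (log2, vertical axis) against the mean level of Mki67, Top2a and Cdc20 (log2, horizontal axis) on each of the 24 arrays, filled for supernatant and open for media, with circles for replicates 1 and 2 and triangles for replicates 3 and 4. Open triangles of the lines lie above and to the left of the open circles, and the filled points of the lines lie between 8.84 and 10.34, above every media array.

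In macrophages the C4b effect was 0.4, with a 95% interval of −0.89 to 1.7 (adjusted p = 0.826). The interval is wide because all 6 groups share 1 estimate of spread, which the split media groups of the lines enlarge. With only the macrophage arrays in the model, the effect had adjusted p = 0.237. With replicates 3 and 4 alone it was 0.77 (adjusted p = 0.00997), within a range over the alternatives of 0.00997 to 0.969. The response of C57epi.1 exceeded that of macrophages by 3.19 (SE 0.883, adjusted p = 0.0224), and that of Bm12.4 exceeded it by 3.29 (SE 0.883, adjusted p = 0.0271). The Bm12.4 difference in response lost the call without treated replicate 3 or 4 (3.14 and 3.21, adjusted p = 0.0565 and 0.0537), media replicate 1 or 2 (3.03 and 2.65, adjusted p = 0.0559 and 0.0545), treated macrophage replicate 1 or 2 (3.14 and 3.18, adjusted p = 0.0611 and 0.057) or macrophage media replicate 2 (3.17, adjusted p = 0.0553). Its adjusted p ran from 7.02e-05 to 0.0611 across the alternatives.

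C4b has a near-identical paralogue, C4a, whose probe set may share signal with it. C4a rose by 0.91 in C57epi.1 (adjusted p = 0.00683) and by 1.16 in Bm12.4 (adjusted p = 0.00175). In macrophages the C4a difference was −0.07 (adjusted p = 0.933). The C57epi.1 rise was not called in replicates 3 and 4 alone (0.46, adjusted p = 0.13, with 0.00336 to 0.13 across the alternatives).

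C2, the protease that joins C4 to form the classical C3 convertase, rose in macrophages and by a small amount in C57epi.1, from array values that were low throughout. In macrophages the arrays had levels of 5.16, 5.54, 5.69 and 5.8 in supernatant, against 4.41, 4.68, 4.44 and 4.58 in media. In C57epi.1 they had 4.24, 4.76, 4.5 and 4.73 in supernatant, against 4.07, 4.26, 4.11 and 4.19 in media. In Bm12.4 they had 4.37, 4.54, 4.5 and 4.42 in supernatant, against 4.3, 4.34, 4.07 and 4.12 in media. Only in C57epi.1 did the treated and media arrays of C2 overlap.

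The C2 rise in macrophages was 1.02 (SE 0.122, 2.03-fold, adjusted p = 1.82e-06). In C57epi.1 it was 0.4 (adjusted p = 0.0231), and in Bm12.4 the difference of 0.25 was not called (adjusted p = 0.292). The C57epi.1 call was lost without treated replicate 2 or 4 (0.33 and 0.34, adjusted p = 0.0933 and 0.0831), without media replicate 1 or 3 (0.37 and 0.38, adjusted p = 0.0556 and 0.0616), with only the C57epi.1 arrays in the model (adjusted p = 0.0552) and in replicates 1 and 2 alone (0.34, adjusted p = 0.313). Its adjusted p ran from 0.00495 to 0.313 across the alternatives. The response of Bm12.4 was below that of macrophages by 0.77 (log2 difference −0.77, adjusted p = 0.00712). For C57epi.1 the difference in response was −0.62 (adjusted p = 0.0234), and it lost the call without treated C57epi.1 replicate 1 (−0.51, adjusted p = 0.0545), treated macrophage replicate 4 (−0.54, adjusted p = 0.0569) or macrophage media replicate 1 (−0.58, adjusted p = 0.0513). In replicates 1 and 2 alone neither was called (−0.47, adjusted p = 0.352 for C57epi.1, and −0.67, adjusted p = 0.156 for Bm12.4). Across the alternatives the adjusted p ran from 0.00294 to 0.352 for C57epi.1 and from 0.00066 to 0.156 for Bm12.4.

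Cfb, the protease of the alternative pathway, had the largest supernatant effect of the 8 genes in each of the 3 kinds of cell. In C57epi.1 the arrays had levels of 9.82, 10.2, 10.15 and 10.4 in supernatant, against 4.71, 4.67, 4.62 and 5.09 in media. In Bm12.4 they had 10.04, 10.64, 10.96 and 10.58 in supernatant, against 4.68, 4.53, 5.67 and 5.59 in media. In macrophages they had 13.19, 13.4, 13.03 and 13.17 in supernatant, against 9.84, 10.78, 10.46 and 10.61 in media. No treated array overlapped the media arrays of its own kind, and the treated lines overlapped the macrophages kept in media.

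Cfb rose by 5.37 in C57epi.1 (SE 0.24, 41.4-fold, adjusted p = 9.64e-14) and by 5.44 in Bm12.4 (SE 0.24, 43.3-fold, adjusted p = 1.01e-13). In macrophages it rose by 2.78 (SE 0.24, 6.84-fold, adjusted p = 1.16e-08). The log2 response of C57epi.1 exceeded that of macrophages by 2.6 (adjusted p = 1.78e-05) and that of Bm12.4 exceeded it by 2.66 (adjusted p = 1.38e-05). These are log2 ratios, and the lines started 5.65 and 5.3 below macrophages. After treatment the lines still lay below macrophages, by 3.05 in C57epi.1 (log2 difference −3.05, adjusted p = 1.81e-10) and by 2.64 in Bm12.4 (log2 difference −2.64, adjusted p = 2.33e-09). Between the lines, the responses differed by −0.07 (95% interval −0.77 to 0.64, adjusted p = 0.96). Cfb in Bm12.4 in media moved with the replicate sets, with 5.63 for replicates 3 and 4, against 4.61 for replicates 1 and 2. The rise there was 5.14 within replicates 3 and 4, against 5.73 within replicates 1 and 2.

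Cfp, which encodes properdin, the stabiliser of the alternative C3 convertase, was a macrophage gene and did not rise with supernatant. In macrophages it had levels of 12.11, 12.13, 11.7 and 12.04 in supernatant, against 12.19, 12.49, 12.53 and 12.37 in media. In Bm12.4 it had 5.56, 5.24, 5.59 and 5.64 in supernatant, against 5.53, 5.84, 5.88 and 5.83 in media, and in C57epi.1 5, 5.19, 5.05 and 5 in supernatant, against 5.42, 5.27, 5.08 and 5.41 in media. The macrophage groups did not overlap, while the treated and media arrays of each line did.

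Cfp fell by 0.4 in macrophages (log2 difference −0.4, SE 0.114, 1.32-fold, adjusted p = 0.021). The fall was not called without treated replicate 3 (−0.3, adjusted p = 0.0968), media replicate 2 (−0.37, adjusted p = 0.0683) or media replicate 3 (−0.36, adjusted p = 0.0761). Nor was it called in replicates 1 and 2 alone (−0.22, adjusted p = 0.478) or with a replicate block over the macrophage arrays (adjusted p = 0.0645, with 0.00329 to 0.478 across the alternatives). The block does not count as paired for macrophages. The differences of −0.23 in C57epi.1 and −0.26 in Bm12.4 were not called (adjusted p = 0.179 and 0.216). In media, Cfp differed from macrophages by −7.1 in C57epi.1 and −6.62 in Bm12.4 (adjusted p = 2.97e-23 and 9.25e-23).

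Serping1, the gene of C1 inhibitor, separated the lines from each other. In C57epi.1 the arrays had levels of 6.41, 6.6, 6.34 and 6.85 in supernatant, against 4.3, 3.93, 5.01 and 4.83 in media. In Bm12.4 they had 8.52, 8.8, 8.79 and 8.98 in supernatant, against 4.5, 4.6, 5.16 and 4.78 in media. In macrophages they had 5.17, 5.39, 5.08 and 5.33 in supernatant, against 4.34, 4.66, 4.28 and 4.52 in media. Treated arrays lay above media arrays in each kind, and the 3 treated groups did not overlap with one another.

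Serping1 rose by 4.01 in Bm12.4 (SE 0.186, 16.1-fold, adjusted p = 2.41e-13), by 2.03 in C57epi.1 (SE 0.186, 4.09-fold, adjusted p = 3.28e-08) and by 0.79 in macrophages (SE 0.186, 1.73-fold, adjusted p = 0.00485). The response of C57epi.1 was smaller than that of Bm12.4 (log2 difference −1.98, SE 0.263, adjusted p = 9.34e-05), and both exceeded that of macrophages, by 1.24 for C57epi.1 (adjusted p = 0.00318) and by 3.22 for Bm12.4 (adjusted p = 2.05e-08). In media, no pair of cell kinds differed past the threshold, with adjusted p = 0.823 for C57epi.1 against macrophages, 0.205 for Bm12.4 against macrophages and 0.429 for C57epi.1 against Bm12.4. In replicates 3 and 4 alone, both lines were called above macrophages in media, by 0.52 in C57epi.1 (adjusted p = 0.0305) and by 0.57 in Bm12.4 (adjusted p = 0.0196). Across alternatives these pairs had an adjusted p of 0.0305 to 0.978 for C57epi.1 and of 0.0196 to 0.856 for Bm12.4. By set, C57epi.1 rose by 2.39 (replicates 1 and 2) and 1.67 (replicates 3 and 4), and Bm12.4 by 4.11 and 3.91.

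**Figure D3:**
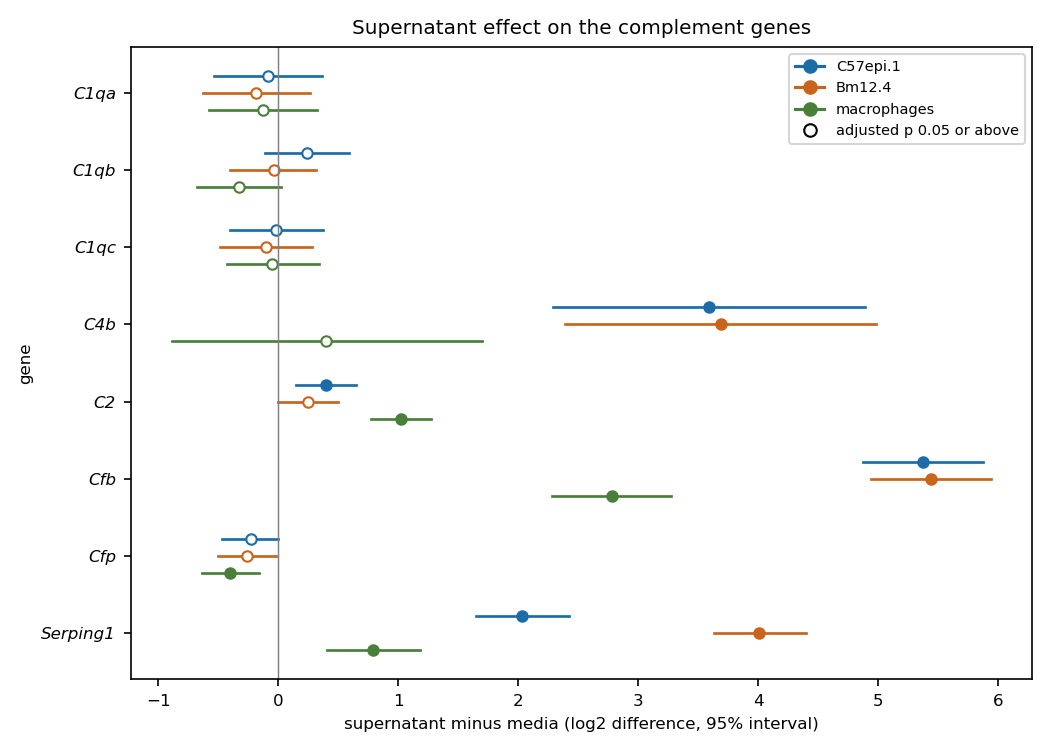
Supernatant minus media difference (log2, horizontal axis) with its 95% interval for the 8 measured complement genes in C57epi.1, Bm12.4 and macrophages, with filled points at an adjusted p under 0.05. Cfb has the largest effects, at 5.37, 5.44 and 2.78, and the intervals of the 3 C1q chains cover 0 in every kind of cell.

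Counted together, 4 of the 8 genes rose with supernatant in C57epi.1, where 8.85% of all 19938 genes rose, and 0 fell, where 10.4% of all genes fell. In Bm12.4, 3 of 8 rose, against 4.54% of all genes, and 0 fell, against 2.7%. In macrophages 3 of 8 rose, against 6.13% of all genes, and 1 fell, against 6.31%. The 8 genes had a median supernatant effect of 0.32 in C57epi.1, where the median over all genes was −0.045. The medians were 0.1 and −0.05 for Bm12.4, and 0.18 and −0.018 for macrophages. The response of C57epi.1 exceeded that of macrophages in 3 of 8 genes, C4b, Cfb and Serping1, against 5% of all genes, and was smaller in 1, C2, against 4.94%. The response of Bm12.4 exceeded that of macrophages in the same 3 genes, against 3.19% of all genes, and was smaller in C2 alone, against 2.45%. Between the lines, the response of C57epi.1 was smaller in 1 of 8, Serping1, against 2.04% of all genes, and larger in 0, against 1.99%. The treated and media arrays serve several of these comparisons, so the comparisons share samples.

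The levels gave a different picture. In media, 6 of 8 genes were lower in C57epi.1 than in macrophages, against 21.8% of all genes, and 0 were higher, against 22.7%. In Bm12.4, 6 were lower, against 20.8% of all genes, and 1, C4b, was higher, against 22.1%. In supernatant, all 8 differed from macrophages in each line, with C4b and Serping1 higher and the other 6 lower. The shares of all genes were 23% higher and 24% lower for C57epi.1, and 21.9% higher and 21.9% lower for Bm12.4. Treated C57epi.1 exceeded treated macrophages by 4.4 in C4b (21.1-fold, adjusted p = 2.46e-06) and 1.31 in Serping1 (2.48-fold, adjusted p = 2.62e-06). Treated Bm12.4 exceeded them by 5.23 in C4b (37.4-fold, adjusted p = 2.09e-07) and 3.53 in Serping1 (11.6-fold, adjusted p = 1.31e-13).

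Several of the media calls were weak. C4b in Bm12.4 exceeded macrophages by 1.94 (adjusted p = 0.0141), and the call was lost without Bm12.4 media replicate 3 or 4 (1.44 and 1.55, adjusted p = 0.0695 and 0.0613) and in replicates 1 and 2 alone (0.61, adjusted p = 0.171). C4b in C57epi.1 exceeded macrophages by 1.22 without a call (adjusted p = 0.128). It was called without C57epi.1 media replicate 1 (1.72, adjusted p = 0.031), with the replicate block (1.22, adjusted p = 0.0422) and in replicates 3 and 4 alone (2.53, adjusted p = 3.24e-08), while in replicates 1 and 2 alone it was −0.11 (adjusted p = 0.855). The replicate block does not count as paired for C57epi.1 or macrophages. C2 was lower in C57epi.1 by 0.37 (log2 difference −0.37, adjusted p = 0.0161) and in Bm12.4 by 0.32 (log2 difference −0.32, adjusted p = 0.0384). The C57epi.1 call was lost without macrophage media replicate 2 (−0.32, adjusted p = 0.0582). It was also lost in replicates 1 and 2 alone (−0.38, adjusted p = 0.121) and with a second quantile normalization (−0.27, adjusted p = 0.116). The Bm12.4 call was lost without Bm12.4 media replicate 3 or 4 (−0.27 and −0.29, adjusted p = 0.107 and 0.0901) or macrophage media replicate 2 or 4 (−0.27 and −0.3, adjusted p = 0.118 and 0.0828). It was lost too in replicates 1 and 2 alone (−0.22, adjusted p = 0.382) and with array weights (−0.31, adjusted p = 0.111). A second quantile normalization also lost it (−0.24, adjusted p = 0.159). Across the alternatives the adjusted p ran from 2.24e-09 to 0.171 for C4b in Bm12.4, from 3.24e-08 to 0.855 for C4b in C57epi.1, from 0.00576 to 0.121 for C2 in C57epi.1 and from 0.00898 to 0.382 for C2 in Bm12.4.

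Between the lines and over all arrays, the counts of complement genes called lay near the shares of all genes. In media, 1 of 8 was lower in C57epi.1, against 12.5% of all genes, and 0 were higher, against 12%. Cfp was lower in C57epi.1 than in Bm12.4 by 0.47 (log2 difference −0.47, adjusted p = 0.00295). In supernatant, 2 of 8 were lower, against 15.6% of all genes, and 0 were higher, against 14.3%. Serping1 was lower in C57epi.1 by 2.22 (log2 difference −2.22, 4.67-fold, adjusted p = 2.16e-09) and Cfp by 0.45 (log2 difference −0.45, adjusted p = 0.00387). In replicates 1 and 2 alone Cfp was not called in media (−0.34, adjusted p = 0.188) or in supernatant (−0.31, adjusted p = 0.209). Treated C4b differed by −0.82 between C57epi.1 and Bm12.4 (95% interval −2.12 to 0.47, adjusted p = 0.406). That C4b difference was called with only these arrays in the model (adjusted p = 0.0114) and in replicates 3 and 4 alone (−1.04, adjusted p = 0.000352). In media, replicates 3 and 4 alone also called C57epi.1 lower in C4b (−0.73, adjusted p = 0.00581) and Cfb (−0.78, adjusted p = 0.00258). Treated Cfb was called lower in that set too (−0.49, adjusted p = 0.0346). Over all arrays Cfb was not called in media (adjusted p = 0.369) or in supernatant (adjusted p = 0.24).

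Ordered by mean level, C4b ran from macrophages in media (4.27) through treated macrophages (4.67), C57epi.1 in media (5.48) and Bm12.4 in media (6.21) to treated C57epi.1 (9.07) and treated Bm12.4 (9.9). Only the step to treated C57epi.1 parted neighbours whose arrays did not overlap. Serping1 ran through macrophages, C57epi.1 and Bm12.4 in media, at 4.45, 4.52 and 4.76, to treated macrophages at 5.24, treated C57epi.1 at 6.55 and treated Bm12.4 at 8.77, with no overlap in the last 2 steps. Cfb had its lowest means in C57epi.1 and Bm12.4 in media, at 4.77 and 5.12. Treated C57epi.1 (10.14), macrophages in media (10.42) and treated Bm12.4 (10.55) overlapped as neighbours, and treated macrophages stood above them at 13.2.

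Genes whose levels were most like those of each complement gene over the 24 arrays were found by Pearson's r, given as a description. The arrays fall into groups, so r mostly reflects which groups are high. For C1qb and C1qc the closest gene was Adgre1, the gene of the macrophage marker F4/80, at r = 0.998 for each. For C1qa it was Trpv2, a cation channel (0.993), with Mertk, a receptor for dying cells, next (0.993), and for Cfp it was Csf1r, the CSF-1 receptor (0.998). The closest genes to Cfb were Tap2, a peptide transporter of MHC class I loading (0.984), and Ciita, the activator of MHC class II genes (0.982). C4b was closest to C4a (0.942) and the C1s gene C1s2 (0.936), C2 to Calhm6 (0.942) and Serping1 to Hap1 (0.947).

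Of a list of other complement genes, 42 had a probe set. With supernatant, 5 of them rose in C57epi.1, where 8.85% of all genes rose, and 1 fell, against 10.4%. In Bm12.4, 6 rose, against 4.54% of all genes, and 0 fell, against 2.7%. In macrophages 2 rose, against 6.13%, and 5 fell, against 6.31%. Their median effect was −0.02, −0.03 and −0.02, close to that of all genes. Among the genes of the C1 proteases, C1ra rose by 1.47 in C57epi.1 (2.77-fold, adjusted p = 0.000772), by 1.59 in Bm12.4 (3.01-fold, adjusted p = 0.000719) and by 1.19 in macrophages (2.28-fold, adjusted p = 0.00668). C1s1 rose by 1.68, 2.19 and 1.8 in the same order (adjusted p = 0.0409, 0.017 and 0.0393). C1s2 rose by 1.6 in C57epi.1 (adjusted p = 0.015) and by 1.59 in Bm12.4 (adjusted p = 0.0349), and was not called in macrophages (−0.17, adjusted p = 0.913). C1ra, C1rb and C1s genes have near copies, and signal may be shared between them.

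The C1s1 calls were weak. In C57epi.1 the call was lost without any treated array (adjusted p = 0.0593, 0.0824, 0.0784 and 0.0892 for replicates 1 to 4) and without media replicate 1 or 2 (1.49 and 1.02, adjusted p = 0.101 and 0.171). In Bm12.4 it was lost without treated replicate 3 or 4 (adjusted p = 0.0539 and 0.0519) or media replicate 1 or 2 (adjusted p = 0.0655 and 0.0677). In macrophages it was lost without treated replicate 1 or 2 (adjusted p = 0.111 and 0.124) or any media array (adjusted p = 0.0909, 0.0796, 0.0662 and 0.0792 for replicates 1 to 4). C1s1 adjusted p ran up to 0.171, 0.0704 and 0.124 across the alternatives in C57epi.1, Bm12.4 and macrophages. C1s2 lost its call in C57epi.1 without media replicate 2 (1.08, adjusted p = 0.062), and in Bm12.4 without treated replicate 2, 3 or 4 (adjusted p = 0.069, 0.128 and 0.0734) or media replicate 1 or 2 (adjusted p = 0.105 and 0.106). Its adjusted p ran up to 0.134 in C57epi.1 and 0.128 in Bm12.4. C1s1 was also higher in media in replicates 3 and 4 of both lines, by 2.56 in C57epi.1 and 2.11 in Bm12.4. For C57epi.1, the C1s1 effect was 2.86 within replicates 1 and 2, against 0.51 within replicates 3 and 4. The same sets gave 2.94 and 1.45 for Bm12.4, and 2.39 and 1.21 for macrophages. C1s2 in C57epi.1 rose by 2.54 within replicates 1 and 2, and its difference of 0.67 within replicates 3 and 4 was not called (adjusted p = 0.134).

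Apart from C4a, given above as higher in Bm12.4, the other listed genes called by at least 2-fold were lower with supernatant, each in 1 kind of cell. Masp1, a protease of the lectin pathway, fell by 1.32 in C57epi.1 (log2 difference −1.32, adjusted p = 0.0204). The Masp1 call was lost without treated replicate 1 (−1.2, adjusted p = 0.0635) or media replicate 3 or 4 (−1.16 and −1.06, adjusted p = 0.0759 and 0.0943), and its adjusted p reached 0.0943 across the alternatives. The Masp1 call was also lost in replicates 1 and 2 alone (−0.87, adjusted p = 0.064), while the difference within replicates 3 and 4 was −1.77. In C57epi.1 in media, Masp1 had 9.09 in replicates 3 and 4, against 7.84 in replicates 1 and 2. In macrophages, the C5a receptor gene C5ar1 fell by 1.11 (log2 difference −1.11, 2.16-fold, adjusted p = 2.09e-05). The collectin Colec12 fell by 1.36 (log2 difference −1.36, adjusted p = 4.39e-05), and Cd93, a surface protein once described as a C1q receptor, fell by 1.91 (log2 difference −1.91, 3.77-fold, adjusted p = 8.02e-05). By set, the Cd93 difference in macrophages was −2.72 within replicates 1 and 2, against −1.11 within replicates 3 and 4. C5ar1 had levels of 7.97, 7.43, 8.21 and 7.64 in treated macrophages, against 8.52, 8.74, 9.34 and 9.09 in media, without overlap. In Bm12.4, Cd93 (0.9, adjusted p = 0.0839) and Colec12 (−0.61, adjusted p = 0.0848) were not called. With the replicate block both were (adjusted p = 0.0482 for Cd93 and 0.0355 for Colec12). So was Cd93 without media replicate 4 (1.08, adjusted p = 0.0421), and Colec12 without media replicate 1 or 2 (−0.8 and −0.75, adjusted p = 0.0125 and 0.0318). Cd93 was also called in replicates 1 and 2 alone (1.08, adjusted p = 0.00089) and in replicates 3 and 4 alone (0.72, adjusted p = 0.0173). A second quantile normalization called it too (0.93, adjusted p = 0.0338), as did a block over the Bm12.4 arrays alone (adjusted p = 0.00839). Colec12 was called in replicates 3 and 4 alone (−1.1, adjusted p = 0.000139). Masp1 in macrophages (0.86, adjusted p = 0.198) was called with the macrophage arrays alone (adjusted p = 0.000462). It was also called with array weights (0.91, adjusted p = 0.0228). Replicates 1 and 2 alone (1.02, adjusted p = 0.0286) and replicates 3 and 4 alone (0.7, adjusted p = 0.0065) called it too. So did a replicate block over the macrophage arrays (adjusted p = 0.000671), which does not count as paired. Across the alternatives its adjusted p ran from 0.000462 to 0.378.

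**Figure D4:**
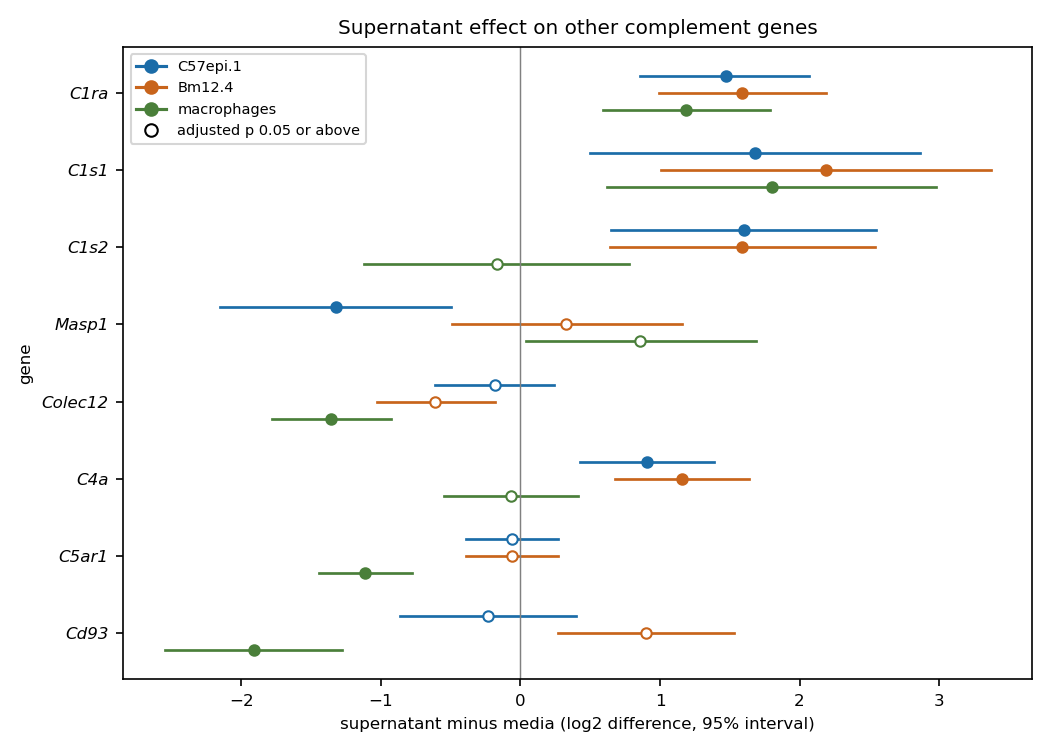
Supernatant minus media difference (log2, horizontal axis) with its 95% interval for 8 other complement genes in C57epi.1, Bm12.4 and macrophages, with filled points at an adjusted p under 0.05. C1ra and C1s1 are above 0 in all 3 kinds of cell, while C5ar1, Colec12 and Cd93 fall in macrophages.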

How the data were processed

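Total RNA (100 ng per array) from 6 groups of 4 was measured on Affymetrix whole-transcript arrays. The values the authors deposited are log2 levels per probe set. GCOS, Partek 6.2 and RMA are named in the submitters' processing notes, with no order or settings given in the sources used here. Array medians lay between 5 and 5.19, arrays of a group correlated at 0.967 to 0.9975 across genes, and 0 pairs were identical. Of 28853 probe sets, 21789 had 1 symbol, 1621 several and 5443 none, and the highest-mean probe set per symbol gave 19938 genes. The number of arrays limits the precision.

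A single limma model (limma 3.58.1 under R 4.3.3, with statmod 1.5.0) gave all 12 comparisons, from a mean per group, with 18 residual and 3.62 prior degrees of freedom, eBayes defaults, two-sided p-values and Benjamini-Hochberg adjustment over 19938 genes. The threshold for a call was 0.05. The code was tested on simulated data. Same-numbered supernatant and media arrays deviated together across genes in Bm12.4 (r from 0.226 to 0.683, with the best other number close behind at 0.191 to 0.643) and not in every pair of C57epi.1 (lowest −0.143) or macrophages (lowest −0.134), so blocked values count as paired for Bm12.4 alone, by a rule of r over 0.1 in every pair, though the numbers barely stand apart. Alternatives left out arrays, used only the arrays compared or replicate pairs, averaged probe sets, dropped genes under 5 in all groups, and changed the variance model, array weights or normalization. The members, the list of other complement genes and the markers were chosen with earlier results of these data known. All members were named, along with listed genes called by at least 2-fold with supernatant and, per member, genes of highest r, passing over predicted, histone and receptor families.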

Additional observations from a re-analysis of the deposited data

Results flagged for a closer look

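The difference in supernatant response between kinds of cell was called for these genes. C57epi.1 minus macrophages gave log2 differences of 3.19 for C4b, 2.6 for Cfb, 1.24 for Serping1 and −0.62 for C2. Among the other complement genes it gave 1.69 for Cd93, 1.17 for Colec12, 1.05 for C5ar1 and −2.19 for Masp1. Bm12.4 minus macrophages gave 3.29 for C4b, 2.66 for Cfb, 3.22 for Serping1 and −0.77 for C2, with 2.81 for Cd93, 1.24 for C4a and 1.05 for C5ar1. C57epi.1 minus Bm12.4 gave −1.98 for Serping1. C5ar1 in the lines lay at 3.58 to 3.72 in group means, near the floor of the array. In means of replicates 1 and 2 and of 3 and 4, Cd93 in C57epi.1 had 3.44 to 3.8, also near the floor. Colec12 in C57epi.1 was low too, at 4.7 to 4.92. The Masp1 fall in C57epi.1 moved with the replicate sets, as given above.

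Single arrays stood far from the other 3 of their group in 2 of 96 sets of 4 values. Cfp in Bm12.4 in media was 5.53 in replicate 1, against a nearest value of 5.83. C1qc in C57epi.1 in media was 3.7 in replicate 2, against 3.51 on each of the other arrays. Chance flags about 1 in 20 such sets.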

How the results depend on the processing

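The count of complement genes called was within 1.5 times of its main value in every comparison under every setting, except between the lines with replicate pairs alone. For C57epi.1 against Bm12.4 in media the count was 0 with replicates 1 and 2 alone and 3 with replicates 3 and 4 alone, against 1, and in supernatant 1 and 4, against 2. With the replicate block, 4, 3 and 4 genes were called for the supernatant in C57epi.1, Bm12.4 and macrophages, as without it. A block over only the arrays compared, chosen after seeing the data, gave the same counts, though in macrophages C1qb was called there and Cfp was not. For Bm12.4 the block changed no call of a supernatant effect on the 8 genes. Of Bm12.4 effects on other complement genes, the block called Colec12 (−0.61, adjusted p = 0.0355) and Cd93 (0.9, adjusted p = 0.0482). No called difference changed its sign. Counts over all genes moved by over 1.5 times as follows. The supernatant effect called 2245, 5830 and 6039 genes in C57epi.1 with replicates 1 and 2, with replicates 3 and 4 and with array weights, against 3832. It called 786 and 3189 in Bm12.4 with only its arrays and with replicates 3 and 4, against 1445, and 3791 in macrophages with array weights, against 2482. C57epi.1 against Bm12.4 in media called 3007 with only those arrays, against 4873. The response of C57epi.1 against macrophages called 4086 and 4335 with replicates 3 and 4 and with array weights, against 1980, and that of Bm12.4 1834 with replicates 3 and 4, against 1124. The responses of the lines differed in 438, 426, 2401 and 2675 genes with only their arrays, replicates 1 and 2, replicates 3 and 4 and array weights, against 803, and in 1263 and 534 without C57epi.1 media replicate 2 or 4. The causes were not tested. A second quantile normalization lowered Cfb in treated macrophages to 12.91 and Cfp to 11.66 in treated macrophages and 12.17 in media. For levels near the floor of the array, the size of a difference is limited by background.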
